A study of Bos taurus with 8 samples.

Results

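The miRNAs described here are 7 related microRNAs of plasma exosomes in cattle, bta-miR-10a, bta-miR-10b, bta-miR-99a-5p, bta-miR-99b, bta-miR-100, bta-miR-125a and bta-miR-125b. The rule that picked them used their names and no measured value, and they are 7 of the 744 bovine miRNAs on the array. The study asked whether grazing movement affects circulating miRNAs (c-miRNAs), and prepared exosomes from the blood plasma of Japanese Shorthorn steers by ultracentrifugation. The steers were adult, were raised on grass without grain and were split into a grazing and a housed group at random. Exosomes are small vesicles that cells release into body fluids, and they carry small RNAs that are protected from degradation in plasma. RNA of 3 steers was pooled for each group at 0, 1, 2 and 4 mo, and each pool was hybridized to 1 of 8 arrays. The grazing cattle were on pasture from early June to late October, and the housed cattle stood in a free-stall barn and were given grass. The months of a group came from the same steers, no pool was repeated, and 0 mo was the start of the period. Errors given below are therefore those that the scanner software gives for 1 array, and they do not cover differences between animals. For bright miRNAs they were close to a fixed share of the signal. The raw signal of bta-miR-10b ran from 110 to 487 over the 8 arrays and was 12.5 to 13.0 times its error on each. A difference counted below as over its error is thus, for such miRNAs, mainly one over a set log2 size.

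The deposited sample labels and a table of values published with the study name the feeding groups in opposite ways. On each array every detected miRNA, between 149 and 226 of them, lay within 1% of 1 column of that table, against at most 12 in any other column. The arrays labelled housed matched the columns headed for grazing cattle, and the arrays labelled grazing matched those of housed cattle. Arrays are called by their deposited label throughout, and each direction between the labels is the opposite one if the published headings hold. All 8 arrays lay on 1 slide, with the label following the column and the month following the row, so position on the slide cannot be told apart from either.

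The miR-10 and miR-99/100 miRNAs are close relatives of ancient origin. The genes of bta-miR-10a and bta-miR-10b lie in Hox clusters, the runs of homeobox genes that set position along the body axis, and the miRNAs target some Hox transcripts. The miR-99/100 genes lie instead in 3-gene clusters with a let-7 gene and a miR-125 gene, an arrangement kept between insects and mammals. miR-99 and miR-100 are known to repress mTOR and other growth-signalling genes, miR-125 is the vertebrate counterpart of lin-4 of the worm and acts in blood stem cells and inflammation, and let-7 promotes differentiation. In the RefSeq gene order of cattle (ARS-UCD2.0), MIR10A lay next to HOXB4 inside the span of HOXB3 on chromosome 19, and MIR10B lay inside HOXD4 on chromosome 2. The order MIR99B, MIRLET7E, MIR125A was found on chromosome 18, MIR125B-2, MIRLET7C, MIR99A on chromosome 1, and MIR125B-1, MIRLET7A-2, MIR100 on chromosome 15.

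The probes are shown first, since they set what each signal can tell about such similar RNAs. They are DNA, complementary to the mature miRNA, and start opposite its 3′ end. Each member had 2 probes of 20 spots each that differed by 1 base in length. The longer one is given 5′ to 3′, and in the first 5 lines capitals mark the letters that differ from the probe of bta-miR-100, aligned without gaps.
bta-miR-100: cacaagttcggatctacgg
bta-miR-99a-5p: acaagAtcggatctacgg
bta-miR-99b: cGcaagGtcggTtcta
bta-miR-10a: cacaaAttcggatctacAggg
bta-miR-10b: cacaaAttcggTtctacAggg
For the miR-125 pair, capitals mark the longest run that the probes of both share.
bta-miR-125a: cacaggttaaAGGGTC
bta-miR-125b: tcacaagttAGGGTCtc
The probes of bta-miR-10a and bta-miR-10b were the same in 20 of 21 bases and differed by A12T, counted from 1 at the 5′ end of the bta-miR-10a probe. Those of bta-miR-99a-5p and bta-miR-100 shared 17 of 18 compared bases and differed by A6T, counted on the bta-miR-99a-5p probe. The run TCGGNTCTA, with N for any base, was held by all 5 miR-10 and miR-99/100 members and by no other miRNA of the array, that is by 0.672% of the 744 miRNAs, and its reverse complement TAGANCCGA was held by 0. The miR-125 probes shared at most 6 bases in a row. Aligned without gaps, 11 of 16 compared bases matched, but there the shared runs do not lie opposite each other. An alignment with gaps was not made, so the count does not measure how alike these 2 probes are with a gap allowed. Binding of 1 member to the probe of a close relative was not tested. The mature sequences and their seeds are not analysed here.

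In the array design (UMD_3.1) the longer probe of bta-miR-10a was placed at chr19:38549278-38549297 on the plus strand and that of bta-miR-10b at chr2:20797628-20797647 on the minus strand. The probe of bta-miR-100 was placed at chr15:33353411-33353428 on the minus strand, that of bta-miR-99b at chr18:58014881-58014895 and that of bta-miR-125a at chr18:58015557-58015571, both on the plus strand. The probe of bta-miR-99a-5p had 2 positions on the minus strand of chromosome 1, chr1:19931200-19931217 and chr1:20136978-20136995. The probe of bta-miR-125b was placed at chr1:19881364-19881380 and chr15:33298834-33298850, both on the minus strand. Its signal thus sums the products of both gene copies. Exons, introns and UTRs of this build are not analysed here.

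Detection on all 8 arrays covered 5 of the 7 members, beside 143 of all 744 miRNAs. bta-miR-10a, bta-miR-10b, bta-miR-99a-5p, bta-miR-100 and bta-miR-125b carried the detection flag of the scanner software on 8 of 8 arrays. bta-miR-99b was flagged on the 4 arrays labelled housed and on 0 of the 4 labelled grazing, and bta-miR-125a on the arrays labelled housed at 0 and 1 mo alone. Hence the 2 members that share a cluster on chromosome 18 were the 2 that were not detected on all arrays. Their cluster neighbour bta-let-7e was detected on 8 of 8 arrays, as were bta-let-7c and bta-let-7a-5p. The remaining neighbours listed, bta-let-7a-3p and bta-miR-99a-3p of the let-7 clusters and bta-miR-196a, bta-miR-196b and bta-miR-615 of the Hox clusters, were detected on 0 of 8. Each array labelled housed had 166 to 226 miRNAs detected, and each labelled grazing 149 to 167. How many of all miRNAs were flagged under the housed label alone was not counted.

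The signal of the arrays differed as a whole. Between 149 and 226 miRNAs were detected per array, and the 90th percentile over all 744 miRNAs lay between 31.2 and 109. Each signal was therefore divided by that percentile of its own array, and this quotient is called the scaled signal. A value of 1 equals the 90th percentile, and no spot was saturated. Signals of different miRNAs rest on different probes and are not ranked against each other.

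bta-miR-10b gave scaled signals of 4.47, 5.26, 4.20 and 5.32 at 0, 1, 2 and 4 mo under the housed label. Under the grazing label they were 2.98, 3.54, 2.93 and 3.62. The labels did not overlap, and within each label 1 and 4 mo were higher than 0 and 2 mo. The order of the 8 arrays had 3 of 7 steps between neighbours that exceeded 1 combined error. They part 1 and 4 mo from 0 and 2 mo within each label, and the labels from each other. On the log2 scale they were 0.24 under the housed label, 0.25 under the grazing label and 0.22 between the labels, each with an error of 0.16. None of them reached the 2 errors used for differences further below. Steps of the other members are likewise held to 1 combined error.

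bta-miR-10a, which differs from bta-miR-10b by a single base in the probe, had scaled signals of 0.820, 0.979, 0.805 and 1.02 on the arrays labelled housed and of 0.544, 0.725, 0.597 and 0.604 on those labelled grazing. Again all arrays labelled housed were above all those labelled grazing. Of the 7 steps in its order 2 exceeded their combined error, and the step between the labels, from housed 2 mo to grazing 1 mo, was not one of them.

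bta-miR-125b had scaled signals of 2.17, 2.18, 2.14 and 2.26 on the arrays labelled housed and of 1.60, 2.02, 1.44 and 1.83 on those labelled grazing. The first 4 values were nearly level and lay within the scanner error of each other, whereas the others rose and fell with the month. The labels did not overlap, but only 1 of 7 steps exceeded its error.

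bta-miR-100, from the cluster that also holds 1 copy of miR-125b, gave 0.493, 0.584, 0.599 and 0.621 on the arrays labelled housed and 0.394, 0.478, 0.355 and 0.420 on those labelled grazing. All values labelled housed were the higher, and the only step of 7 to exceed its combined error was the one between 1 and 0 mo within the housed label.

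bta-miR-99a-5p gave 0.691, 0.796, 0.788 and 0.846 on the arrays labelled housed and 0.622, 0.697, 0.626 and 0.748 on those labelled grazing. This was the 1 member detected on all arrays whose labels overlapped, since grazing 1 and 4 mo were above housed 0 mo. None of its 7 steps exceeded its combined error.

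bta-miR-99b had raw signals of 20.4, 18.5, 9.34 and 16.2 on the arrays labelled housed, where it was detected, and of 5.69, 5.30, 4.79 and 5.32 on those labelled grazing, where it was not. By the mean log2 scaled signals, bta-miR-99b was 1.48-fold higher on the arrays labelled housed. This fold sets the 4 detected values against 4 measured values without the detection flag, and it is not a lower bound. On all 4 arrays labelled grazing the signal of bta-miR-99b was above the lowest detected signal of the array, so no bound replaced it. Over the 8 arrays its signal fell to 2.21 times its error. bta-miR-125a was near background everywhere, with raw signals of 6.21, 4.69, 3.63 and 3.43 on the arrays labelled housed and of 3.34, 2.08, 1.14 and 1.52 on those labelled grazing. Its longer probe alone rose above 3 times its error, on housed 0 and 1 mo, and its shorter probe stayed between -0.786 and 1.15. No fold between the labels is given for it.

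**Figure D1:**
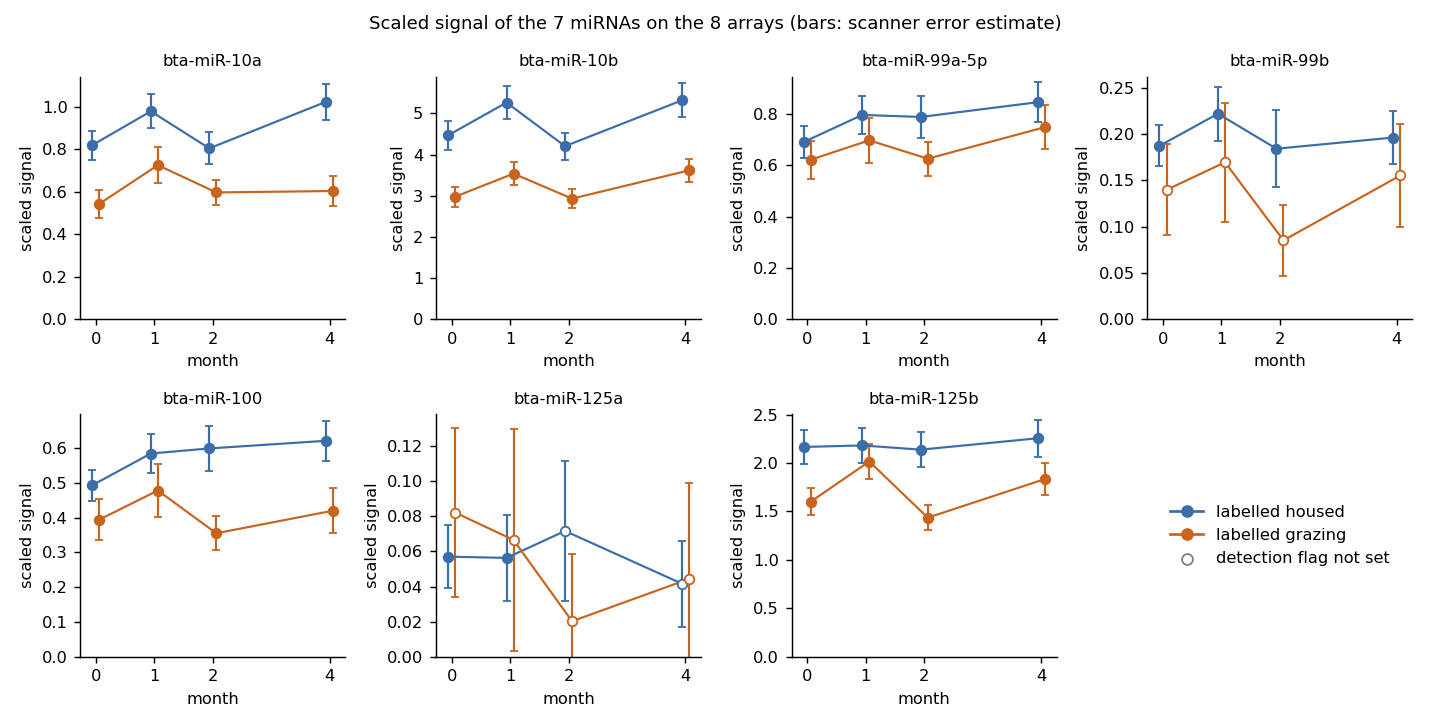
Scaled signal (signal over the 90th percentile of its array, linear axis from 0) of the 7 miRNAs against month, with blue points for the arrays labelled housed, orange points for those labelled grazing, open points where the detection flag was not set, and bars for the scanner software's error estimate of 1 array. The blue points lie above the orange ones at every month for the 5 miRNAs detected on all arrays, and the points of bta-miR-125a are filled only on the arrays labelled housed at 0 and 1 mo.

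The unscaled signals of the shorter and the longer probe of a member ran together over the arrays. The brightness of the arrays, whose 90th percentiles lay between 31.2 and 109, enters these signals and each correlation below. Across the 8 arrays the correlation of their log2 signals, which share the pool and the array, was 0.999 for bta-miR-10b, 0.996 for bta-miR-10a and bta-miR-125b, 0.988 for bta-miR-100, 0.987 for bta-miR-99a-5p and 0.966 for bta-miR-99b. The longer probe of bta-miR-99a-5p carried 86.2 to 88.8% of the signal of both, and that of bta-miR-10b 71.4 to 73.1%. These shares do not depend on the scaling of an array. Whether both probes share a course beyond the brightness of the arrays was not tested.

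Between the labels, all 5 members detected on all arrays were lower on the array labelled grazing at each of the 4 months, in 20 of 20 comparisons of the same month, and in 12 of these by more than 2 combined errors. Of all 143 miRNAs detected on all arrays, 69.9, 45.5, 51.7 and 59.4% were lower there at 0, 1, 2 and 4 mo, and the members were so already at 0 mo, the start of the period. The log2 difference, grazing minus housed, of bta-miR-10b was -0.59, -0.57, -0.52 and -0.56 at 0, 1, 2 and 4 mo with an error of 0.16 at each. That of bta-miR-10a was -0.59, -0.43, -0.43 and -0.76 with errors of 0.20 to 0.21, and these 2 members exceeded 2 errors at every month. bta-miR-100 passed 2 errors at 2 and 4 mo (-0.75 and -0.56), bta-miR-125b at 0 and 2 mo (-0.44 and -0.57), and bta-miR-99a-5p, from -0.33 to -0.15, at none.

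The median difference of the 5 members was -0.44, -0.29, -0.52 and -0.56 at the 4 months. Over all 143 miRNAs detected on all 8 arrays it was -0.22, 0.09, -0.02 and -0.17. At 2 mo the 90th percentiles of both arrays were close to each other (50.7 labelled housed and 56.1 labelled grazing), and the members' raw signals without scaling were lower on the array labelled grazing as well. The scaled signals of bta-miR-10a, bta-miR-10b, bta-miR-100 and bta-miR-125b, 4 of 5 members, did not overlap between the labels over all months, with grazing the lower. Of all 143 miRNAs 16.1% were separated in this direction. At the later months alone 5 of 5 members and 23.8% of all miRNAs were so separated.

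**Figure D2:**
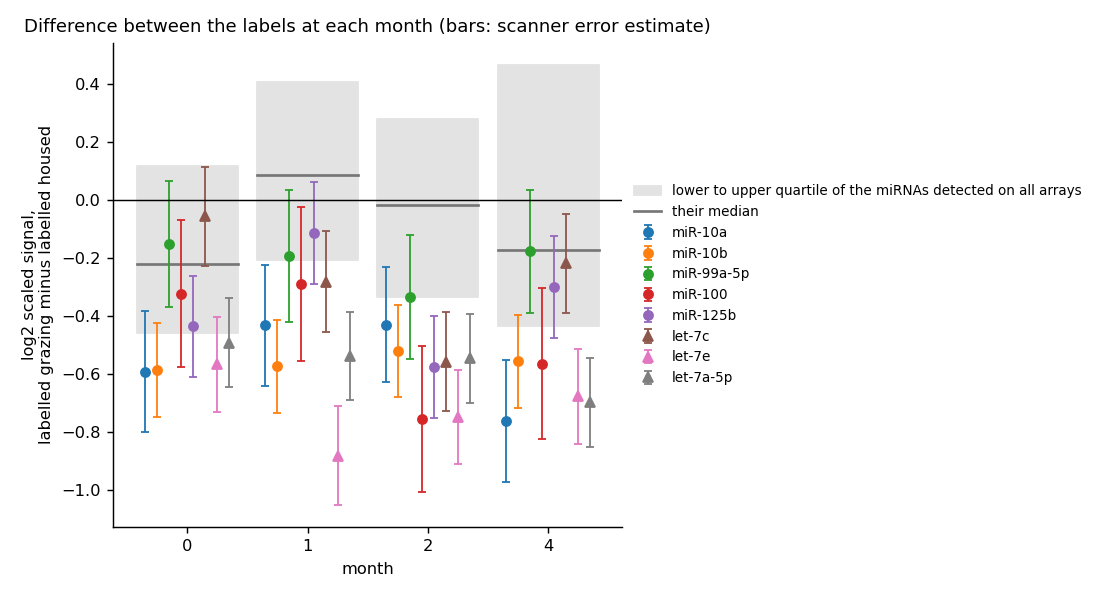
Difference in log2 scaled signal between the arrays labelled grazing and housed at 0, 1, 2 and 4 mo, with circles for the 5 members detected on all arrays, triangles for the let-7 neighbours, bars for the combined scanner error estimate, a grey box from the lower to the upper quartile and a grey line for the median of the 143 miRNAs detected on all arrays. All points lie below 0, and those of bta-miR-10b stay between -0.59 and -0.52 at every month.

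The let-7 neighbours were on the same side. bta-let-7e, between miR-99b and miR-125a, had differences of -0.57, -0.88, -0.75 and -0.68 at the 4 months, all over 2 errors. bta-let-7a-5p, whose copies include the neighbour of miR-100, lay between -0.70 and -0.49 and was also over 2 errors at every month. bta-let-7c, between miR-125b and miR-99a, passed 2 errors at 2 mo alone (-0.56) and was -0.06 at 0 mo. bta-let-7g, which the study took as the normalizer of its qRT-PCR, was between -0.40 and -0.19.

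To compare the labels while the feeding differed, the 6 arrays of 1, 2 and 4 mo were fitted with limma with month as a factor. With Benjamini-Hochberg adjustment at 0.05, 16 of the 143 miRNAs, 11.2%, passed, 9 higher and 7 lower on the arrays labelled grazing. Scaled to let-7g the split was 40 higher and 3 lower, and with the 90th percentile of the 143 miRNAs alone 7 higher and 22 lower. Without the 1, 2 or 4 mo arrays 1, 2 and 0 miRNAs passed, of which 0 were members. Of the members 0 of 5 passed, while 3 had an unadjusted p below 0.05, as had 52 of all 143 miRNAs. By ordinary least squares 0 of all 143 miRNAs passed, members included. The estimates of bta-miR-10b, bta-miR-10a and bta-miR-100 were near the threshold, at -0.55 (SE 0.20, limma adjusted p = 0.0562), -0.54 (SE 0.20, limma adjusted p = 0.0628) and -0.54 (SE 0.20, limma adjusted p = 0.0628). For bta-miR-125b it was -0.33 (limma adjusted p = 0.258) and for bta-miR-99a-5p -0.23 (limma adjusted p = 0.415). The median of the 5 estimates was -0.54, against -0.01 over all miRNAs tested. Scaled to let-7g these medians were -0.21 and 0.33, and without scaling -1.38 and -0.85. The 95% intervals of the first 3 did not reach 0 and those of bta-miR-125b and bta-miR-99a-5p did, so the intervals of these latter members hold both signs. Which members passed depended on the setting. When all 4 months were fitted, 3 of 5, namely bta-miR-10a, bta-miR-10b and bta-miR-100, passed (limma adjusted p = 0.0279, 0.0279 and 0.0415), as did 38 of all 143 miRNAs. That fit adds the 0 mo arrays from the start of the period, so it does not describe the time of different feeding alone. Of the neighbours, bta-let-7e passed at -0.77 (limma adjusted p = 0.0185), bta-let-7a-5p was -0.59 (limma adjusted p = 0.0548) and bta-let-7c -0.35 (limma adjusted p = 0.222).

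Of the 8 listed blood cell miRNAs 4 passed the test between the labels at the later months, 3 lower and 1 higher on the arrays labelled grazing. The listed red cell miRNAs bta-miR-144, bta-miR-451 and bta-miR-486 were detected on 8 of 8 arrays and made up 1.81 to 4.28% of the detected signal under the housed label and 1.41 to 1.85% on arrays labelled grazing. In the fit of the later months the estimate of bta-miR-144 was -1.38 and that of bta-miR-451 -0.92, and both passed the test, whereas bta-miR-486 at -0.33 did not. The list for platelets and endothelium, bta-miR-126-3p, bta-miR-126-5p and bta-miR-223, held 5.14 to 8.30% labelled housed and 3.57 to 5.79% labelled grazing. The paper describes miR-223 as high in cells of myeloid lineage, so this share mixes cell types. Of this list bta-miR-126-5p passed at -0.70, whereas bta-miR-126-3p at -0.58 (limma adjusted p = 0.0562) and bta-miR-223 at 0.42 (limma adjusted p = 0.184) did not. The lymphocyte miRNA bta-miR-150 was higher on the arrays labelled grazing (0.83) and passed, and bta-miR-155 did not (-0.07). Of 7 muscle miRNAs 6 were detected on no array, bta-miR-133b was detected on 2, and the liver miRNA bta-miR-122 on 5. Fewer vesicles of a cell type and less of a miRNA per vesicle cannot be told apart in such pools, and the part of blood cells in the members' values was not tested.

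The course over the months was small for every member. Within its label, the change from 0 mo lay between -0.16 and 0.42 on the log2 scale, none exceeded 2 combined errors, and 1 and 4 mo were above 0 mo for all 5 members under both labels. Of all 143 miRNAs 47.6% at 1 mo and 46.9% at 4 mo were below 0 mo under the housed label, and 28.7 and 35.7% under the grazing label. At 2 mo 3 of 5 members were below 0 mo under either label, beside 54.5% of all miRNAs under the housed label and 49.0% under the grazing label. bta-miR-10b, for example, changed by 0.24, -0.09 and 0.25 on the arrays labelled housed and by 0.25, -0.02 and 0.28 on those labelled grazing. bta-miR-100 changed by 0.24, 0.28 and 0.33 under the housed label and by 0.28, -0.15 and 0.09 under the grazing label.

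In the fit of all 8 arrays, the later months against 0 mo over both labels, 10 of the 143 miRNAs passed, 6.99%, of which 1 rose and 9 fell. Without the 1, 2 or 4 mo arrays 0, 0 and 20 miRNAs passed, and with the 75th percentile of all miRNAs 1 rose and 0 fell. Of the members 0 of 5 passed, 0 had an unadjusted p below 0.05, and 0 passed by ordinary least squares. Their estimates ran from 0.07 for bta-miR-125b to 0.21 for bta-miR-10a (limma adjusted p from 0.466 to 0.821). The 95% interval of bta-miR-10b ran from -0.22 to 0.52, that of bta-miR-10a from -0.15 to 0.57 and that of bta-miR-100 from -0.18 to 0.54.

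The question the design was built for, whether the change from 0 mo differed between the labels, was fitted with an interaction of the grazing label and the later months. Here 2 of the 143 miRNAs passed, 1.40%, both upward, and 0 passed without the arrays of any 1 later month. Of the members 0 of 5 passed, 0 had an unadjusted p below 0.05, and 0 passed by ordinary least squares. The estimates lay between -0.21 for bta-miR-100 and 0.11 for bta-miR-125b (limma adjusted p from 0.961 to 0.978), with standard errors near 0.4. The interval of bta-miR-10b, from -0.79 to 0.86, holds changes of either sign.

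**Figure D3:**
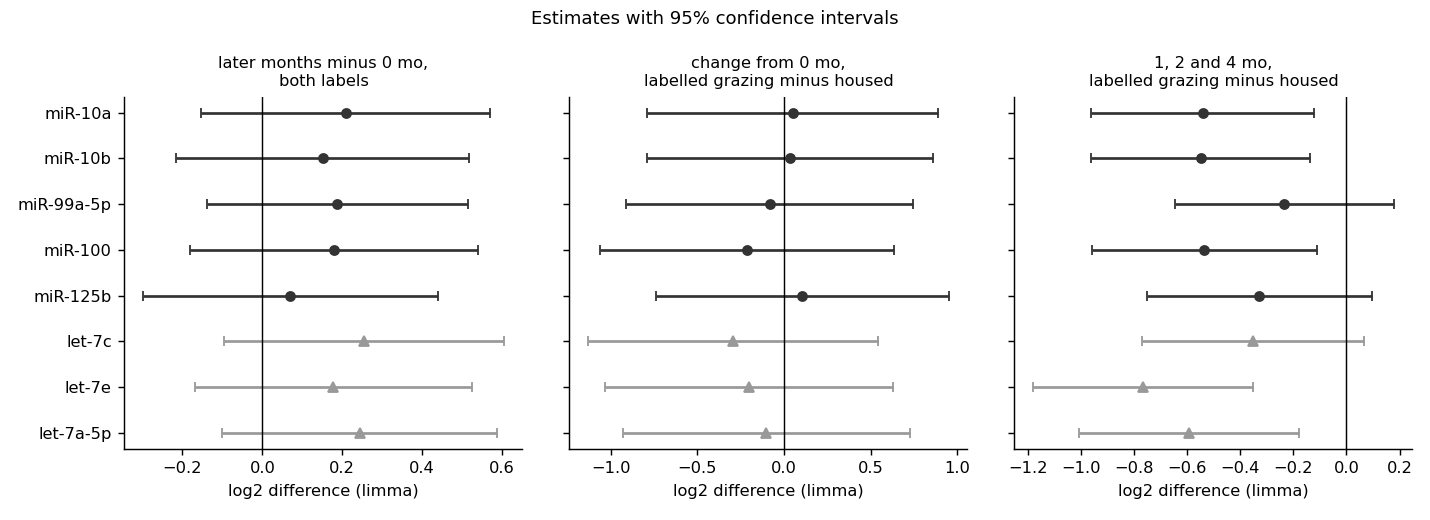
Estimates of the 3 limma fits in log2 units with 95% confidence intervals, circles for members and triangles for let-7 neighbours, with a separate axis range in each panel. All intervals of the first and second panel cross 0, and in the third those of bta-miR-10a, bta-miR-10b, bta-miR-100, bta-let-7e and bta-let-7a-5p lie below 0.

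Ratios within an array do not depend on its scaling, and their change over arrays is described here, not their height. The ratio of bta-miR-10b to bta-miR-10a differed between the labels by less than its error, with log2 means of 2.41 labelled housed and 2.40 labelled grazing, a span of 0.30 over 8 arrays and a median error of 0.18. The ratio of bta-miR-100 to bta-miR-99a-5p ran from -0.49 to -0.40 on the arrays labelled housed and from -0.83 to -0.54 on those labelled grazing. These ranges did not overlap, while the span of 0.44 compares with a median error of 0.23. Most spots were well above background on 0 arrays labelled grazing for bta-miR-100 and on 1 for bta-miR-99a-5p. The part of background subtraction in this ratio was not tested, and how often other pairs of miRNAs separate was not counted. Of the genes sharing the chromosome 1 cluster, bta-miR-99a-5p over bta-let-7c stayed within a span of 0.23 (median error 0.19). bta-miR-125b over bta-let-7c spanned 0.45 (median error 0.17), with the array labelled housed at 0 mo, at -0.09, above the other 7, which lay between -0.53 and -0.34.

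**Figure D4:**
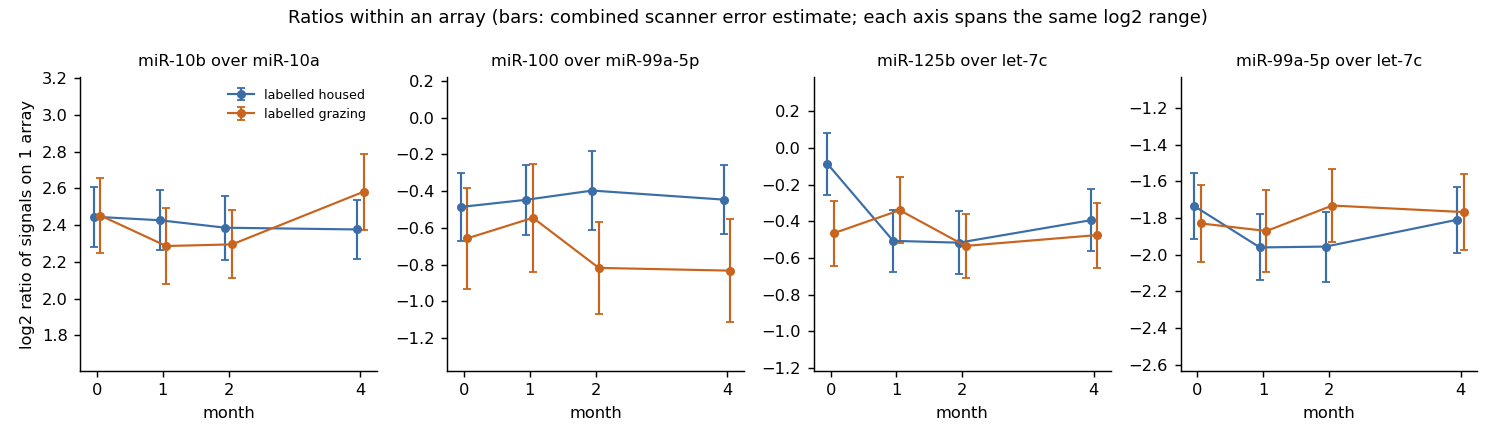
Log2 ratio of the signals of a pair of miRNAs on the same array against month, blue for arrays labelled housed and orange for arrays labelled grazing, with bars for the combined scanner error estimate and axes of equal span. The labels overlap for bta-miR-10b over bta-miR-10a and are separate for bta-miR-100 over bta-miR-99a-5p.

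Across the 8 arrays, the 3 miRNAs whose log2 scaled signal was most like that of each member were not other members. Only 5 of the 143 miRNAs compared were members. For bta-miR-10a they were bta-let-7f, bta-let-7a-5p and bta-miR-101 (Pearson r of 0.989, 0.986 and 0.972). For bta-miR-10b they were bta-miR-126-3p, bta-let-7e and bta-let-7a-5p (0.975, 0.967 and 0.966). For bta-miR-100 they were bta-let-7g, bta-miR-126-5p and bta-miR-144 (0.992, 0.975 and 0.973), so the endothelial and red cell miRNAs above were among them. bta-miR-99a-5p was most like bta-miR-497, bta-miR-199a-3p and its cluster neighbour bta-let-7c (0.964, 0.952 and 0.935), and bta-miR-125b most like bta-miR-195, bta-miR-126-3p and bta-miR-139 (0.981, 0.954 and 0.946). Between members r lay from 0.818 to 0.960, and so was high as well. The median r of a member over all 143 miRNAs was 0.239 for bta-miR-10a, 0.175 for bta-miR-10b, 0.132 for bta-miR-100, 0.107 for bta-miR-125b and 0.019 for bta-miR-99a-5p. The 8 points share 2 sets of steers and 1 slide, and the separation of the labels is part of each r.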

How the data were processed

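Plasma exosomal RNA pools of 3 steers were labelled with Cy3 by the authors and hybridized to a custom 1-colour Agilent array for bovine miRNAs, 1 pool per feeding group at 0, 1, 2 and 4 mo. The arrays were quantified by the authors with the Feature Extraction software of Agilent (version 10.7.3.1, per the submitters' processing notes), and the deposited intensity values are background-subtracted totals per miRNA that are not normalized between arrays. A further table deposited by the authors holds linear values, a ratio of the signal to 1 factor per array that is not centred, with column medians from 0.000664 to 0.00257. Its direction needs no dye, as there was 1 colour, and the set of values behind its factor is unknown. Of its 743 entries 730 matched a miRNA name of the arrays, and 0 columns were left out. It was used as an alternative only.

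From the deposited intensity values, the total signal of a miRNA was scaled to the array's own 90th percentile, which was computed from 744 miRNAs, and taken to log2, with undetected values and lower values set to a floor of 0.114. No member detected on all arrays was raised to it. The 143 miRNAs that all 8 arrays detected were tested with limma 3.58.1 in R 4.3.3 and Benjamini-Hochberg adjustment at 0.05, with 5 residual degrees of freedom for the change over both labels and 2 for the other comparisons. p-values describe these pools, since each label's months share their steers. In simulated data for 143 miRNAs, of which 20 changed by 2 on the log2 scale over noise with an SD of 0.2, 100% were recovered in each of the 3 comparisons, with 2, 0 and 1 false calls. The planted change was larger than every estimate of a member. Recovery of differences of the members' size was therefore not tested, and their results cannot be judged by it. Combined errors add the scanner software's error estimates in quadrature. The number of arrays limits the precision.

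The members, the lists of neighbours and cell markers and the tests were chosen with earlier results of these data known. Named are all members, the listed neighbours and cell markers, let-7g and the 3 miRNAs most like each member. Alternatives were other scalings, signals, filters, detection rules and forms of the fit, and leaving out a month. Remaining steps used pandas 2.3.3 and numpy 2.4.6 in Python 3.11.15, and figures were drawn with matplotlib 3.10.9. Coordinates are the array design's on UMD_3.1, and RefSeq gene order is that of ARS-UCD2.0.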

Additional observations from a re-analysis of the deposited data

How the results depend on the processing

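No paired analysis was possible because each label and month had 1 array and so no replicate numbers to pair, beyond the month factor that already matches arrays of the same month in the fits of the label difference. In the difference between the labels at the later months, 0 of 5 members passed, and 3 passed with the 90th percentile taken over the miRNAs detected on all 8 arrays, with trend and robust moderation, and with all 4 months fitted, where 29, 35 and 38 of all 143 miRNAs passed. With normexp correction 1 member and 11 of 143 miRNAs passed, and with a raw signal above 30 on all 8 arrays 1 of 2 members and 26 of 73 miRNAs. The other 13 alternatives gave 0. Scaling to let-7g turned bta-miR-99a-5p to 0.092, and no alternative turned any of the other 4 members, but bta-miR-100 went from -0.54 to -0.076 with normexp correction, and let-7g scaling took bta-miR-125b from -0.33 to -0.0035, bta-miR-10a from -0.54 to -0.22 and bta-miR-10b from -0.55 to -0.22. The count over all miRNAs went from 16 to as few as 0 and as many as 43 under the alternatives. In the other comparisons each of 17 alternatives gave 0 members, while the count over all miRNAs went from 10 to between 0 and 20 for the later months against 0 mo and from 2 to between 0 and 2 for the label difference in change.

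Small estimates changed sign. For the later months against 0 mo, no scaling gave -0.14 for bta-miR-10a, -0.19 for bta-miR-10b, -0.16 for bta-miR-99a-5p, -0.16 for bta-miR-100 and -0.27 for bta-miR-125b. bta-miR-125b also fell below 0 with the 75th percentile over the miRNAs detected on all 8 arrays (-0.047), let-7g (-0.057), quantile normalization (-0.065) and normexp correction (-0.014). For the label difference in change from 0 mo, the 90th percentile over the miRNAs detected on all 8 arrays gave -0.38 for bta-miR-10a, -0.40 for bta-miR-10b and -0.33 for bta-miR-125b. The 75th percentile over all miRNAs gave -0.10, -0.12 and -0.046 for these, and over those detected on all 8 arrays -0.099, -0.11 and -0.043. Quantile normalization gave -0.17 for bta-miR-10a and -0.064 for bta-miR-125b, and normexp correction -0.072 for bta-miR-10a. Without the 1 mo arrays bta-miR-10a was at -0.0040 and bta-miR-125b at -0.0013, and without the 2 mo arrays bta-miR-10a was at -0.0053. No scaling gave 0.49 for bta-miR-99a-5p and 0.36 for bta-miR-100, and let-7g 0.025 for bta-miR-99a-5p. The cause was not tested.

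Of the members 5 were detected on all 8 arrays by the scanner flag, beside 143 of all miRNAs. A signal above 3 times its error or above the constant of the series table also gave 5 members, beside 137 and 141 miRNAs. Spots well above background on most of the spots gave 3 members and 95 miRNAs. By this rule bta-miR-99a-5p reached 5 arrays, 4 labelled housed and 1 labelled grazing. bta-miR-100 reached the 4 labelled housed and 0 labelled grazing.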
